A study of Mus musculus with 18 samples.

Results

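The RNA levels of 9 genes of myelin and of the oligodendrocyte, the cell that makes myelin in the central nervous system, were compared between DBA/2J and C57BL/6J mice. The genes were Mbp, Mal, Gjb1, Mog, Mag, Mobp, Cnp, Cldn11 and Ugt8a. Their spots were taken by name, as every spot whose symbol in the platform annotation is one of the 9. The 9 genes themselves, all held by the arrays, were chosen with earlier results of these data known. They take up 11 spots, 3 of Mbp and 1 of each other gene, among 20218 features of which 15095 are named genes. Whole brain was compared on 6 arrays, whole kidney on 6 and whole liver on 6. Each array carried a pool of DBA/2J RNA in one dye and a pool of C57BL/6J RNA in the other, from 10 mice per strain for brain and kidney and 9 for liver. The labels, which write the strains DBA2/J and C57Bl/6J, state no age, sex or treatment for the mice.

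Every array of a tissue carries the same pool label, with nothing to mark separate pools. A p-value here reflects the spread between arrays, which may be technical, and not how mice varied. The dyes were never swapped, so a dye effect of a spot and a strain difference cannot be told apart within a tissue. In whole tissue, fewer cells of a type and less RNA per cell cannot be told apart either. Values are log2 ratios of DBA/2J over C57BL/6J after loess normalisation within each array, given as mean ± SD over 6 arrays. Negative values stand for less RNA in DBA/2J. That direction is likely but not stated. It rests on the order of strains and dyes in the labels, and Glo1, which is duplicated in DBA/2J, was higher on every array of every tissue, by 0.63 ± 0.13 in brain (n = 6). Adjusted p-values come from limma, adjusted by Benjamini-Hochberg across the 20218 features, and the threshold is 0.05.

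Myelin is a stack of compacted oligodendrocyte membrane wound around axons. Its compact layers are held together by Mbp, the myelin basic protein, together with smaller proteins such as Mobp. Mag and Mog lie at the axonal and the outer surface of the sheath, Cnp lines its cytoplasmic channels, and Ugt8a makes the galactolipids of its membrane. Mal is a proteolipid of lipid rafts that sorts membrane proteins. Gjb1 encodes connexin 32, a gap junction protein, and Cldn11 forms the tight junctions of the sheath. Several of these genes are known outside the nervous system as well. Gjb1 is a major connexin of hepatocytes and is transcribed from different start sites in liver and in myelinating cells, and Mal is abundant in the apical membranes of kidney tubules.

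Mal and Gjb1 had the largest brain ratios of the 9, and Gjb1 the largest difference between tissues, so the windows before their transcription start sites are shown, with that of Mag, a further gene called in brain. Each window holds 300 bases, 250 before the annotated start and 50 after it, in the C57BL/6J reference (RefSeq, GRCm38.p6). Of the 9 genes, 8 had windows that were read, 13 in all, with 4 start sites for Gjb1 and 3 for Mag. No window was read for Mbp, which was also called in brain. The capitals mark matches on either strand to ACAAAG or ACAATG, core letters bound by SOX factors, and to CTGGCAC, letters of the MYRF motif. The DBA/2J sequence was not read.
Mal, chr2:127656646-127656945, minus strand: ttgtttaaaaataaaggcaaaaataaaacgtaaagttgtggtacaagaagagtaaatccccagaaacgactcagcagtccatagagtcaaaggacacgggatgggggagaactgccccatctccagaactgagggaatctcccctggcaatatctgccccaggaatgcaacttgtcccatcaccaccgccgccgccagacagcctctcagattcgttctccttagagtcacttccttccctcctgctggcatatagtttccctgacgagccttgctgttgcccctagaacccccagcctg
Gjb1, start site 1, chrX:101376126-101376425, plus strand: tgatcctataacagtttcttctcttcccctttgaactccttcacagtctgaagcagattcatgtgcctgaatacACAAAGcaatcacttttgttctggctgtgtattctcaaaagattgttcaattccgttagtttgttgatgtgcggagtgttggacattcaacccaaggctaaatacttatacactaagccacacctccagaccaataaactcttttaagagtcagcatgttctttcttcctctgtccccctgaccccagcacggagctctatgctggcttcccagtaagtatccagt
Gjb1, start site 4, chrX:101383482-101383781, plus strand: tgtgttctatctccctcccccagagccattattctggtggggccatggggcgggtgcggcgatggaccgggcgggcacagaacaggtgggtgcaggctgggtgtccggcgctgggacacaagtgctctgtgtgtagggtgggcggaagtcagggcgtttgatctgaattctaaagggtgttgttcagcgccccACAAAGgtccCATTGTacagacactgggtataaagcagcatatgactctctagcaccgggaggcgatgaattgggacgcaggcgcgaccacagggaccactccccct
Mag, start site 1, chr7:30914814-30915113, minus strand: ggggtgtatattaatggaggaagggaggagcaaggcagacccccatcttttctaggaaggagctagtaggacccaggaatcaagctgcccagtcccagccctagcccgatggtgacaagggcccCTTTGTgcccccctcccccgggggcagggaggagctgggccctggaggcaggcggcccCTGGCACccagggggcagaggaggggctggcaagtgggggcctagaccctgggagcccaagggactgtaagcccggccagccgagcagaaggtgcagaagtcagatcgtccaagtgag

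The Mal window held none of the 3 motifs. The window at Gjb1 start site 4 held ACAAAG at base 194 and ACAATG, on the other strand, at base 204, and that at site 1 held ACAAAG at base 75. The windows at Gjb1 sites 2 and 3 held no match. The window at Mag start site 1 held ACAAAG on the other strand at base 125 and CTGGCAC at base 183. That at site 2 overlaps it and holds the same matches, and that at site 3 held none. Cnp had 1 match to each of ACAAAG and CTGGCAC, Mobp had 6 matches to ACAAAG, all on the other strand, and the windows of Mog, Cldn11 and Ugt8a had none. Of all 32851 such windows, 18.7% held ACAAAG, 12.6% held ACAATG and 5.01% held CTGGCAC. No matches overlapped in the 4 windows shown. A match is only a description of the letters in the window.

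The labelled tissues were checked by the estimated intensity of marker spots, given as the percentile among all spots of a tissue. The synaptic gene Snap25 stood at percentile 98.6 in brain, 66.0 in kidney and 56.8 in liver. Umod, made by the thick ascending limb, stood at 68.7, 99.4 and 24.8, and the plasma protein gene Alb at 87.0, 73.5 and 99.9. Of the measured markers, 11 of 11 for neurons stood highest in brain, 9 of 9 for liver in liver and 5 of 8 for kidney in kidney. The other 3 kidney markers were Aqp2 (45.4 in brain, 83.5 in kidney, 99.5 in liver), Nphs1 (highest in brain, 36.2, and lowest in liver, 14.0) and Slc5a2 (99.5, 98.8 and 99.2). The neuron marker Camk2a was dim everywhere, at 7.85, 4.96 and 7.11. Intensity was rebuilt from the deposited ratios and is itself an estimate. The myelin spots were examined the same way. Mobp stood at percentile 95.9 in brain, 74.5 in kidney and 50.6 in liver, Mag at 79.8, 40.3 and 12.7, and Mog at 50.9, 0.726 and 11.2. Each of these was brightest in brain, as were the 3 Mbp spots, at 97.7, 72.5 and 99.5 there. Mbp spots 1 and 3 were bright in kidney (91.4 and 94.7) and liver (91.5 and 87.9) too, and spot 2 was dimmer there (4.10 and 26.5). Mal was bright in brain (90.7) and in kidney (84.9), and dim in liver (17.0).

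The spots of Cnp, Ugt8a, Cldn11 and Gjb1 were not brightest in brain. Cnp, an abundant oligodendrocyte enzyme, lay among the dim spots in every tissue, at percentile 9.23 (brain), 10.4 (kidney) and 5.02 (liver). The Ugt8a spot was dimmer in brain (69.7) than in kidney (92.9) or liver (93.0). Cldn11 stood high in all 3, at 93.4, 94.8 and 87.1. Gjb1 was brightest in liver (96.3), followed by brain (77.9) and kidney (48.7). Spot names were not tested against probe sequences, and for Cnp and Ugt8a the intensity goes against the label of a brain myelin gene.

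**Figure D1:**
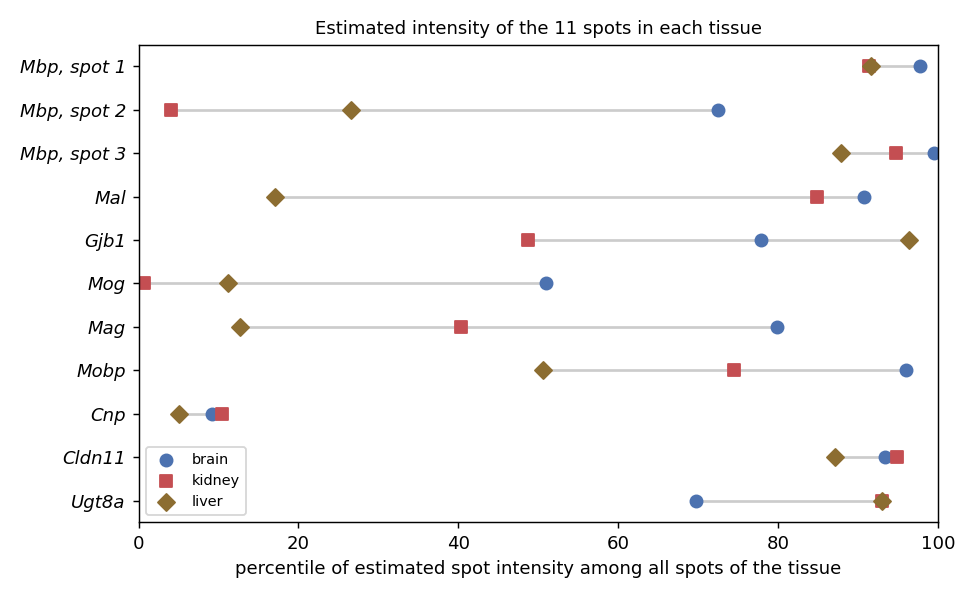
Percentile of estimated spot intensity (horizontal axis, 0 to 100) of the 11 spots in brain (circles), kidney (squares) and liver (diamonds), with the 3 Mbp spots in the order of the deposited table. Mog, Mag, Mobp and the Mbp spots lie farthest right in brain, Gjb1 in liver, and Cnp at 10.4 or below in every tissue.

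In brain, 4 of the 9 genes were lower in DBA/2J, 0 were higher and 5 did not pass the threshold. An unadjusted limma p under 0.05 was found for 6 of the 9 genes and for 5994 of the 20218 features. Of all features 13.8% passed in brain, 7.41% as higher and 6.39% as lower. Mal and Gjb1 showed the largest ratios, and Mbp and Mag smaller ones just inside the threshold. None of the 9 reached 1.5-fold in brain, where 1.75% of features passed with a ratio of that size. The 9 genes had a median of -0.23 and the features as a whole 0.00.

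Mal ranged from -0.60 to -0.33 over the 6 brain arrays, with a median of -0.49. Every array was below 0, as for 9.43% of all features, while 8.72% were above 0 on every array. The mean was -0.48 ± 0.09 (n = 6, limma adjusted p = 0.00138), or 1.40-fold lower in DBA/2J. With any 1 brain array left out it lay between -0.51 and -0.46 and passed each time.

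Gjb1 ranged from -0.68 to -0.13 in brain with a median of -0.43, again with all 6 arrays below 0. Array 3 was the closest to 0 and array 5 the farthest from it. Its mean of -0.42 ± 0.18 (n = 6, limma adjusted p = 0.00700) made the connexin 1.33-fold lower. It passed without any 1 brain array, between -0.47 and -0.36.

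For Mbp, the mean of its 3 spots ran from -0.31 to -0.13 with a median of -0.23, and was below 0 on 6 of 6 arrays. The mean was -0.23 ± 0.06 (n = 6, limma adjusted p = 0.0378), or 1.17-fold lower, the smallest SD of the 9 genes in brain. Not every spot passed singly, and differences between the spots were not tested. Spot 1 stood at -0.25 ± 0.09 (adjusted p = 0.0363 in the fit of single spots by limma) and spot 3 at -0.34 ± 0.16 (adjusted p = 0.0126), and both were below 0 on 6 of 6 arrays. Spot 2, the dimmest of the 3 in brain, stood at -0.10 ± 0.12 (limma adjusted p = 0.382), with 5 of 6 arrays below 0. The call for Mbp as a gene ended without any 1 of brain arrays 1 to 6, with means from -0.25 to -0.22.

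Mag, the adhesion protein that faces the axon, ranged from -0.37 to -0.09 with a median of -0.24. All 6 brain arrays were below 0 here too. The mean of -0.23 ± 0.10 (n = 6, limma adjusted p = 0.0480) was 1.17-fold lower. This call also ended without any 1 of brain arrays 1 to 6, with means from -0.25 to -0.20. Calls for Mbp and Mag lay near the threshold and held only with all 6 brain arrays. Of all features, 13.8% passed with the 6 arrays and between 6.54% and 16.2% with 1 left out.

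Mog and Mobp had brain means close to those of Mbp and Mag but a wider spread. Mog, the outer-surface glycoprotein, ranged from -0.53 to 0.15 with a median of -0.25 (-0.24 ± 0.24, n = 6, limma adjusted p = 0.0942). Without brain array 6, the only array above 0, its mean was -0.31 and passed. Mobp ranged from -0.39 to 0.13 with a median of -0.21 (-0.19 ± 0.17, limma adjusted p = 0.132). Again array 6 alone was above 0.

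Brain values of Cnp, Cldn11 and Ugt8a lay around 0. Cnp ran from -0.16 to 0.43 with a median of -0.09 (-0.01 ± 0.23, n = 6, limma adjusted p = 0.968), with array 6 at the top. Cldn11 ran from -0.21 to 0.20, with 3 arrays on each side of 0 (-0.01 ± 0.19, limma adjusted p = 0.975). Ugt8a, which makes galactosylceramide, ran from -0.24 to 0.16 (-0.06 ± 0.16, limma adjusted p = 0.624). A value that does not pass is not shown to be equal between the strains.

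All 9 brain means were below 0, as were 49.0% of the brain means of all features, although those of Cnp, Cldn11 and Ugt8a changed sign with the scaling or the arrays used, as described below. Array by array, between 6 and 9 of the 9 genes lay below 0 in brain, with 9 on array 5 and 6 on array 6. The median of the 9 genes ran from -0.31 on array 1 to -0.09 on array 6. In kidney 3 to 6 of the 9 lay below 0 on an array and in liver 2 to 7. The genes share arrays and pools and are not independent of each other. They were also chosen with earlier results of these data known.

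**Figure D2:**
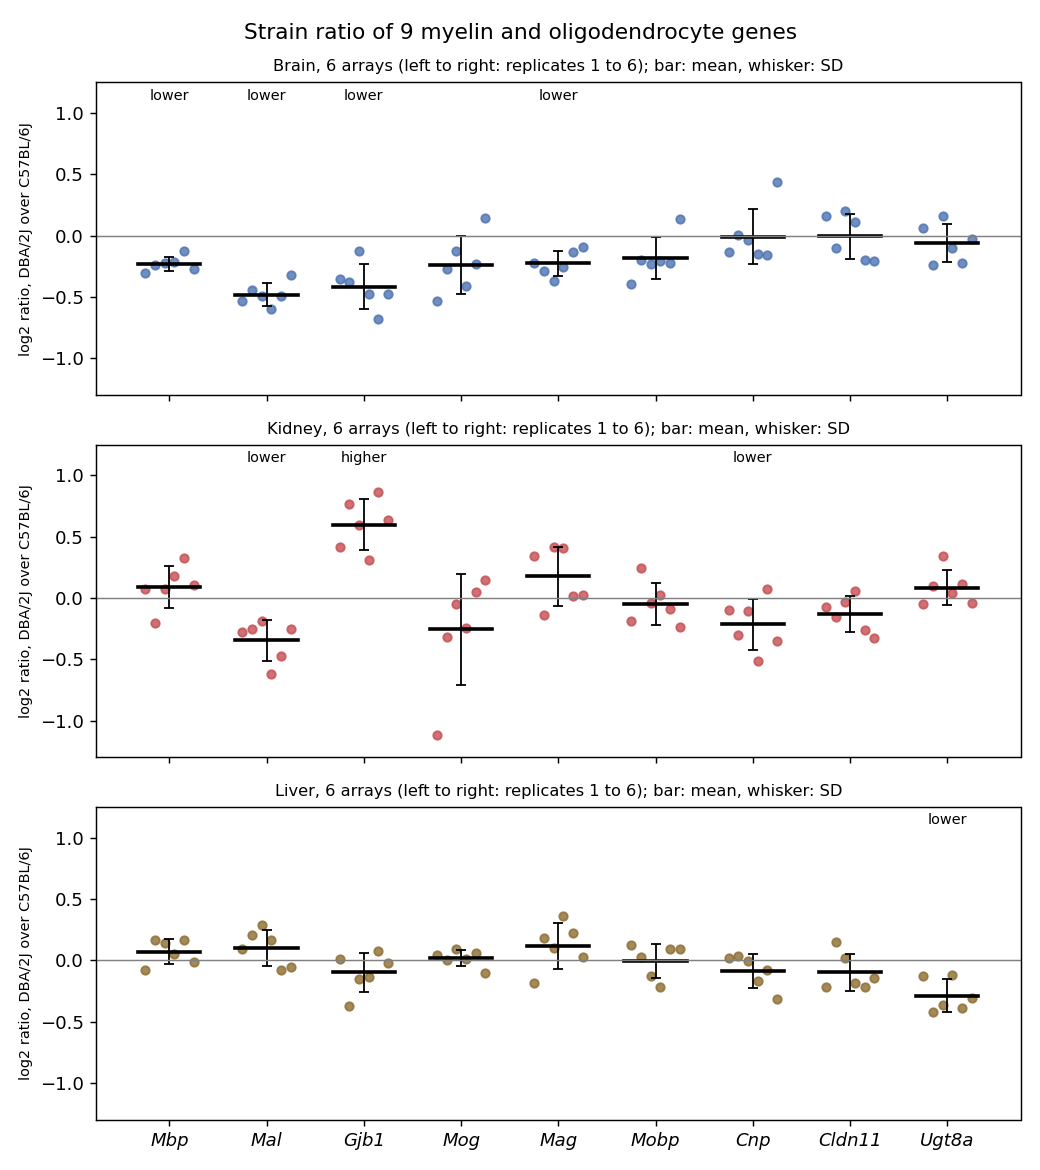
Log2 ratio of DBA/2J over C57BL/6J (vertical axis) of each gene on each of the 6 arrays of brain, kidney and liver, with points for arrays, bars for means and whiskers for SDs. The words mark genes past the threshold. Mal, Gjb1, Mbp and Mag lie below 0 on all 6 brain arrays, and Gjb1 lies above 0 on all 6 kidney arrays.

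Kidney held 3 called genes of the 9, 1 higher and 2 lower, where 40.7% of all features passed, 20.3% as higher and 20.4% as lower. Gjb1 was higher in DBA/2J kidney. It ranged from 0.31 to 0.86 with a median of 0.62, and all 6 arrays lay above 0, as for 17.3% of features. The mean was 0.60 ± 0.21 (n = 6, limma adjusted p = 7.07e-05), or 1.51-fold, the only ratio of the 9 genes to reach 1.5-fold in any tissue. In kidney 4.57% of features passed with a ratio of that size, and in liver 2.39%.

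Mal was lower in kidney as well as in brain. It ranged from -0.62 to -0.19 with a median of -0.27 and was below 0 on 6 of 6 arrays, as for 18.5% of features, with arrays 4 and 5 the lowest. The mean was -0.34 ± 0.17 (n = 6, limma adjusted p = 0.00212), or 1.27-fold lower, but it was 0.05 with median centring in place of loess and -0.10 with the intensity left unrestored. Neither value passed. Kidney ratios depended strongly on intensity before normalisation, with correlations across spots between 0.606 and 0.706 on the 6 arrays. Brain arrays 1, 3 and 4 had correlations of 0.580, 0.593 and 0.478, and brain arrays 2, 5 and 6 of 0.0956, -0.00012 and 0.122. On the liver arrays they ran from -0.151 to 0.320.

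Cnp was the other kidney gene past the threshold. It ranged from -0.51 to 0.07 (-0.22 ± 0.21, n = 6, limma adjusted p = 0.0421) with 5 of 6 arrays below 0. Leaving out kidney array 1, 2, 4 or 6 ended the call (-0.24, -0.20, -0.16 and -0.19), as did a single loess per array (-0.25). The mean was -0.82 with median centring and -0.37 with unrestored intensity, and both passed. Its spot lay at percentile 10.4 of intensity there. Mag averaged 0.18 ± 0.24 (limma adjusted p = 0.108) and passed at 0.24 without kidney array 2. Mog averaged -0.26 ± 0.45 in kidney, where its spot was among the dimmest on the array. Array 1 stood at -1.12 and the others between -0.32 and 0.14.

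In liver, 1 of the 9 genes passed, against 23.1% of all features, 10.9% as higher and 12.3% as lower. Ugt8a was lower in DBA/2J liver, from -0.42 to -0.12 with a median of -0.34 and 6 of 6 arrays below 0, as for 12.4% of features. The mean of -0.29 ± 0.13 (n = 6, limma adjusted p = 0.0110), or 1.22-fold lower, passed without any 1 liver array. Gjb1, brightest in this tissue, ranged from -0.37 to 0.08 and averaged -0.10 ± 0.16 (limma adjusted p = 0.347). Mal averaged 0.10 ± 0.15 and Mbp 0.07 ± 0.10, neither past the threshold. Of the 3 Mbp spots, spot 3 was higher in liver (0.28 ± 0.17, limma adjusted p = 0.0193 in the fit of single spots) and spot 1 was below 0 on 6 of 6 arrays without passing (-0.16 ± 0.15). Spot 2 was higher in kidney (0.29 ± 0.28, limma adjusted p = 0.0196), where it lay at percentile 4.10 of intensity. Spots of the same gene thus differed in sign.

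The strain ratios were then compared between tissues in a fit of all 18 arrays. A dye effect that is constant for a spot drops out of such a difference. The brain arrays enter both comparisons with brain, which are therefore not independent. Gjb1 had the largest difference, with a ratio lower in brain than in kidney by -1.01 (95% interval -1.24 to -0.79, limma adjusted p = 8.72e-07), a 2.02-fold difference of ratios. In this comparison 5.38% of features passed at 1.5-fold or more. The highest brain array (-0.13) lay below the lowest kidney array (0.31), as for 8.59% of features whose arrays did not overlap between these tissues. Mag (-0.40, interval -0.63 to -0.18, limma adjusted p = 0.0103) and Mbp (-0.32, interval -0.51 to -0.13, limma adjusted p = 0.0125) also had lower ratios in brain than in kidney. The brain and kidney arrays of both overlapped. Mag did not pass with median centring (-0.25, limma adjusted p = 0.165), nor Mbp with unrestored intensity (-0.29, limma adjusted p = 0.0767). That made 3 of 9 genes, all lower, against 23.4% of all features, 12.2% as higher and 11.2% as lower. The difference for Mal was -0.14, with an interval of -0.33 to 0.06 that includes 0. It passed at -0.42 with median centring (limma adjusted p = 0.0214) and at -0.46 with unrestored intensity (limma adjusted p = 0.0432).

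Between brain and liver, 2 of the 9 genes differed, both lower, against 7.55% of all features, 4.32% as higher and 3.23% as lower. None reached 1.5-fold, as 2.45% of features did. Mal had a lower ratio in brain by -0.58 (interval -0.78 to -0.39, limma adjusted p = 0.000284), and its brain and liver arrays did not overlap, as for 3.77% of features. With median centring the difference was -0.29 and did not pass (limma adjusted p = 0.289). Mbp differed by -0.30 (interval -0.49 to -0.11, limma adjusted p = 0.0407), and this call ended without any 1 of brain arrays 1, 2, 3, 4 and 6 or liver arrays 2, 3, 4 and 5, with values from -0.31 to -0.28. It also ended with median centring (-0.21) and with unrestored intensity (-0.25). Mag (-0.34, limma adjusted p = 0.0581) and Gjb1 (-0.32, limma adjusted p = 0.0825) had intervals below 0 and did not pass after adjustment. Mag passed without liver array 1 (-0.40), and Gjb1 without brain array 3 (-0.37) or liver array 2 (-0.37).

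Between kidney and liver 3 genes differed, against 19.2% of all features, 11.0% as higher and 8.24% as lower, and 5.06% at 1.5-fold or more. Gjb1 had a higher ratio in kidney by 0.70 (interval 0.47 to 0.92, limma adjusted p = 7.35e-05) and Ugt8a by 0.37 (interval 0.17 to 0.57, limma adjusted p = 0.00835). For Ugt8a the difference did not pass with a single loess per array (0.34, limma adjusted p = 0.0851) and was 0.94 with median centring. Mal had a lower ratio in kidney by -0.45 (interval -0.64 to -0.25, limma adjusted p = 0.00176), but the difference was 0.12 with median centring and -0.18 with the intensity left unrestored, where it did not pass. Arrays of these tissues did not overlap for any of the 3 genes, as for 9.33% of features. The intervals for Mog were the widest in each comparison, reaching from -0.29 to 0.33 between brain and kidney.

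**Figure D3:**
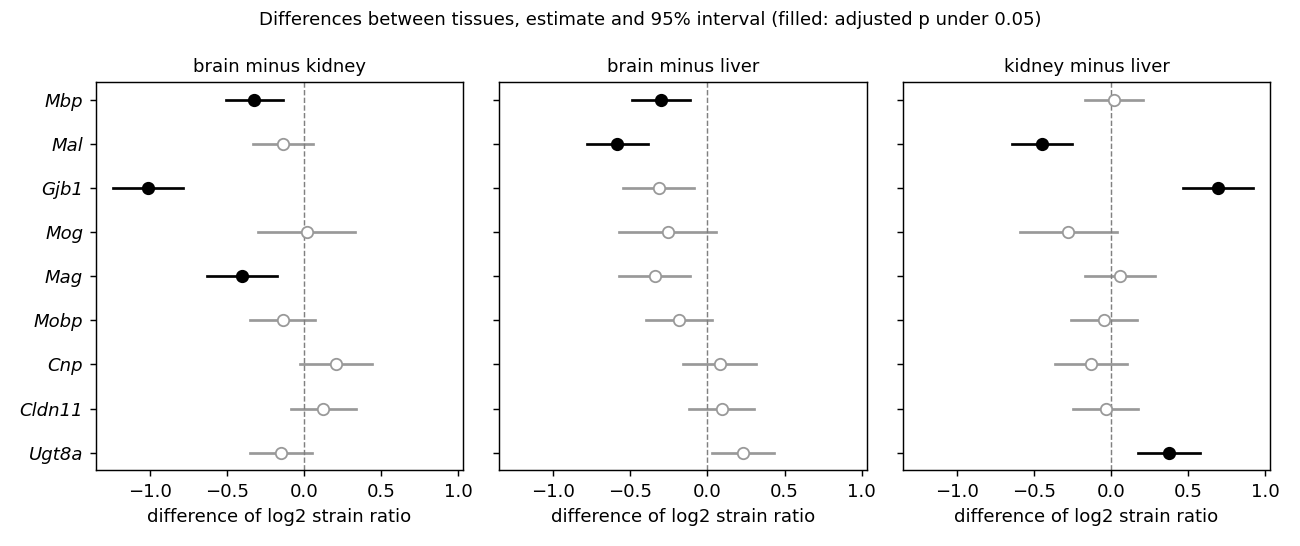
Differences of the log2 strain ratio between tissues (horizontal axes) with unadjusted 95% intervals, filled where the adjusted p was under 0.05. Gjb1 stands at -1.01 between brain and kidney and at 0.70 between kidney and liver, and Mal at -0.58 between brain and liver.

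The scaling of the arrays mattered for most of these genes. In brain, Mal passed under every scaling tried, from -0.55 with the intensity left unrestored to -0.36 with median centring. Gjb1 passed in brain with loess of every kind but not with median centring (-0.27, limma adjusted p = 0.102), and in kidney it passed under each scaling, from 0.59 to 0.73. Mbp fell short in brain with the intensity left unrestored (-0.17) and with median centring (-0.07). Mag fell short with these (-0.18 and -0.09) and with a single loess per array (-0.20), and just missed the threshold when spots were tested singly (adjusted p = 0.0511). Median centring moved Cldn11 in kidney from -0.13 to 0.66 and Mobp from -0.05 to 0.38. Mog passed in kidney with median centring (-0.94), a single loess per array (-0.48) and unrestored intensity (-0.47). Also in kidney, Mbp (0.36) and Ugt8a (0.67) passed with median centring and Mag (0.34) with a single loess.

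**Figure D4:**
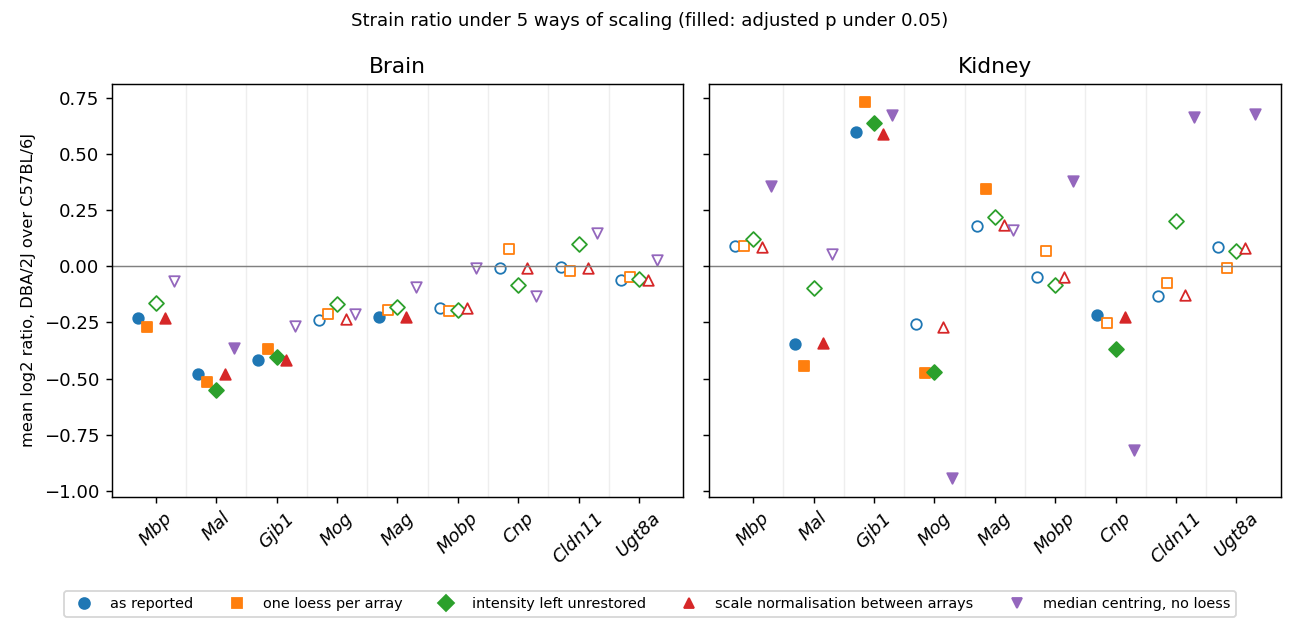
Mean log2 ratio (vertical axis) of the 9 genes in brain and in kidney under 5 ways of scaling, filled where the adjusted p was under 0.05. Mal stays filled in all 5 in brain, from -0.55 to -0.36, and Gjb1 in all 5 in kidney, from 0.59 to 0.73, while Cldn11 and Ugt8a in kidney spread widely.

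Other genes of the lineage came from 7 lists by role. They name 116 genes, the 9 included, and 92 of them were measured. In brain 7 of these passed as higher and 11 as lower, 74 did not pass, and the median was -0.04. With median centring it was 10 higher and 4 lower, where 17.5% of all features passed. Without the 9 genes it was 7 higher, 7 lower and 69 not past of 83, with a median of -0.03, where 13.8% of all features passed. The number past the threshold among the 92 fell from 18 to 15, 8, 10, 7, 6 and 10 without brain array 1, 2, 3, 4, 5 or 6. Of all features, 16.2%, 8.45%, 10.1%, 6.54%, 7.47% and 7.53% passed in the same fits.

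Among 12 genes of compact myelin and its membrane, 2 were higher, 3 lower and 7 not past in brain (median -0.17). Besides Mal and Mbp, Pmp22, a peripheral myelin protein, was lower (-0.29 ± 0.09, limma adjusted p = 0.0169). On the other side stood the proteolipid Pllp (0.27 ± 0.19, limma adjusted p = 0.0422) and Bcas1, a gene of early myelinating oligodendrocytes (0.23 ± 0.09, limma adjusted p = 0.0429). Of 10 genes of contact between axon and glia, 2 were lower, Mag and the oligodendrocyte surface glycoprotein Omg (-0.28 ± 0.15, limma adjusted p = 0.0298), and 8 did not pass. Gjb1 was the only one of 6 junction genes to pass. None of 10 genes of myelin lipid synthesis passed in limma, and 1 had an unadjusted p under 0.05, against 5994 of all 20218 features.

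The 28 genes of oligodendrocyte metabolism and signalling went both ways, 3 higher, 3 lower and 22 not past, where 13.8% of all features passed. Gpr37, a receptor of maturing oligodendrocytes, had the largest brain ratio among the 92 genes of these lists, 1.87-fold higher in DBA/2J (0.90 ± 0.35, limma adjusted p = 0.000626), from 0.46 to 1.31 over the arrays. Car2, the carbonic anhydrase of oligodendrocytes, was higher too (0.33 ± 0.22, limma adjusted p = 0.0253). Ptgds, the prostaglandin D synthase, was lower (-0.58 ± 0.26, limma adjusted p = 0.00268), as was the small heat shock protein gene Cryab (-0.36 ± 0.23, limma adjusted p = 0.0204). Cryab was lower still in kidney (-1.18 ± 0.22) and liver (-0.99 ± 0.25). Car2, in contrast to brain, was lower in liver (-0.66 ± 0.25), and it averaged -0.11 ± 0.45 in kidney without passing. Gpr37 was higher in kidney as well as in brain (0.31 ± 0.31, limma adjusted p = 0.0201), and it averaged -0.15 ± 0.33 in liver without passing.

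Among 14 transcription factors of the lineage 1 passed, Sox17 (0.52 ± 0.26, limma adjusted p = 0.00476). The lineage regulators Olig1 (-0.14, limma adjusted p = 0.297), Olig2 (-0.16, limma adjusted p = 0.315) and Sox10 (-0.00, limma adjusted p = 0.977) did not. Of 12 genes of precursor cells, 1 was higher, the receptor phosphatase gene Ptprz1 (0.28 ± 0.22, limma adjusted p = 0.0491), and 2 were lower. Those were Bmp4, a ligand that holds back oligodendrocyte differentiation (-0.57 ± 0.46, limma adjusted p = 0.0169, with the lowest array at -1.32), and Lingo1, a receptor component that restrains myelination (-0.26 ± 0.16, limma adjusted p = 0.0399, but 0.05 with median centring). Pdgfra, the growth factor receptor that marks precursors, stood at 0.10 (limma adjusted p = 0.418). Beside the counts of both lists, 13.8% of all features passed in brain. Outside brain, Bmp4 was lower in liver (-1.03 ± 0.28) and averaged 0.21 ± 0.32 in kidney without passing. Lingo1 was higher in kidney (0.35 ± 0.09) and averaged -0.11 ± 0.11 in liver without passing.

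Several of these calls in brain ended when an array was left out, always with the sign kept. That held for Bcas1 without any 1 of the 6 arrays (0.20 to 0.26), for Pllp without array 2, 3, 4, 5 or 6 (0.24, 0.29, 0.31, 0.22 and 0.26) and for Ptprz1 without the same arrays (0.26, 0.28, 0.32, 0.22 and 0.24). Lingo1 lost its call without array 2, 3, 4, 5 or 6 (-0.25, -0.25, -0.29, -0.29 and -0.21) and Omg without array 2, 4, 5 or 6 (-0.24, -0.26, -0.25 and -0.30). Car2 did without array 3, 4 or 5 (0.32, 0.36 and 0.26), Pmp22 without array 4 or 5 (-0.28 and -0.26), Cryab without array 2 or 6 (-0.30 and -0.32) and Bmp4 without array 5 (-0.55). Gpr37, Ptgds and Sox17 passed without any 1 brain array.

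The scaling moved several of them too. Median centring ended the calls of Pmp22 (-0.20), Omg (-0.15), Bmp4 (-0.46) and Lingo1 (0.05), reduced Ptgds to -0.29, and raised Pllp to 0.52, Bcas1 to 0.47 and Car2 to 0.50. Unrestored intensity ended those of Pmp22 (-0.24), Omg (-0.25), Pllp (0.27) and Lingo1 (-0.20), with Ptgds at -0.37. A single loess per array ended those of Ptprz1 (0.23) and Lingo1 (-0.21).

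**Figure D5:**
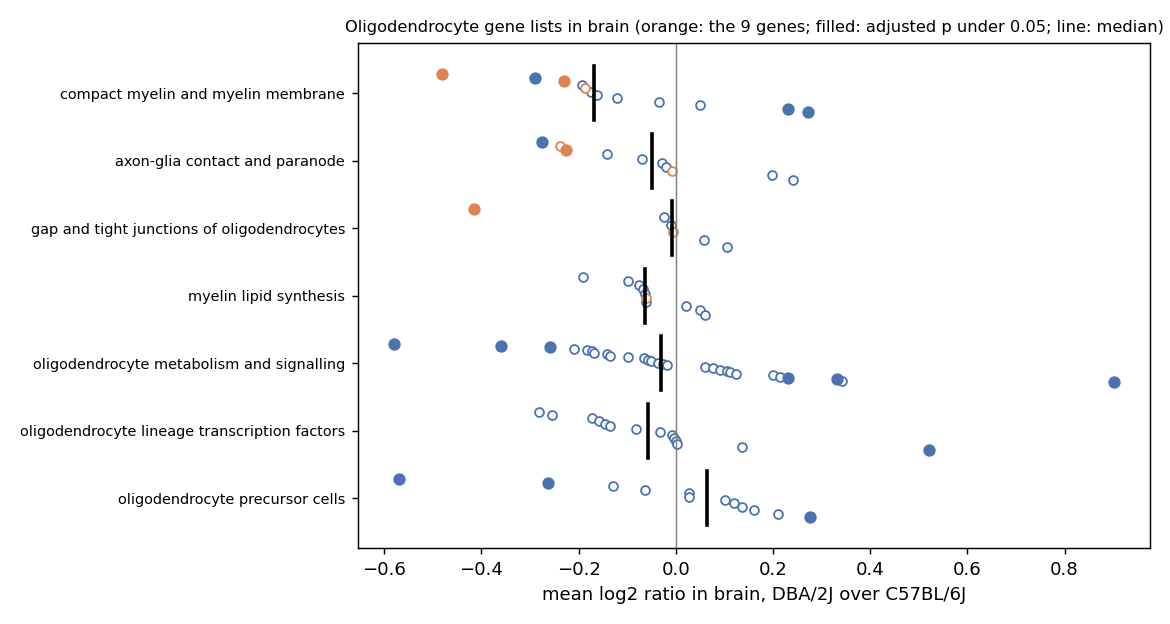
Mean log2 ratio in brain (horizontal axis) of the genes of 7 lists by role, with the 9 genes in orange, filled points for an adjusted p under 0.05 and a line at each list's median. Called genes lie on both sides of 0, with Gpr37 at 0.90 and Ptgds at -0.58 at the ends.

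Markers of other brain cells were read beside these values. Of 10 astrocyte markers, 0 were higher and 1 was lower in brain, glutamine synthetase, Glul (-0.95), with a list median of -0.13 and means between -0.95 and 0.12. Of the same 10, 4 had an unadjusted limma p under 0.05. Neuron markers had a median of -0.01 with 0 of 11 past the threshold in limma (2 at an unadjusted p under 0.05), and microglia and macrophage markers -0.02 with 0 of 9 (4 unadjusted). Endothelium and pericyte markers stood at 0.02 with 1 of 8 higher. Of 5 markers of choroid plexus and ependyma 0 passed, also unadjusted, and 4 Schwann cell markers gave 1 higher and 1 lower, the latter Pmp22. Of all 20218 features, 5994 had an unadjusted limma p under 0.05 in brain, and 13.8% passed after adjustment. The part of the other brain cells in the myelin ratios was not tested.

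The named genes whose ratios over the 18 arrays lay closest to those of each called gene were found by the root mean square difference. For Mal these were 1810013D15Rik (0.156), Gml2 (0.159) and Rps6kb2 (0.168), against a median of 0.455 over 15086 named genes. For Gjb1 they were 3110083C13Rik (0.198), Casq1 (0.229) and Krtap5-4 (0.231), against 0.521. Mbp lay closest to Rrad (0.125), Add1 (0.128) and Ppie (0.129), and Mag to Gtf3c5 (0.162), Pbk (0.165) and 6430503K07Rik (0.168). Ratios of single genes over so few arrays describe likeness only.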

How the data were processed

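Each of 18 two-colour arrays, 6 per tissue, compared pooled DBA/2J and C57BL/6J RNA. The deposited values are log2 ratios, which per the labels were read with the program Spot and normalised by print-tip lowess in limma. No versions are stated. The values did not look normalised. Over 21765 spots, 100.0% equalled the log2 of one whole number over another (tolerance 1e-12), and array medians ran from -1.65 to 0.16. A further 1275 spots, at 0 on every array, were left out. The values were therefore treated as raw ratios, the other case that the planned design allowed for. Intensities were recovered from the whole numbers up to 65535, with the common factor of each spot estimated from the other arrays (assumed SD 0.4). Ratios were normalised in limma 3.58.1 (R 4.3.3) by print-tip loess (span 0.3, 4 iterations, 48 blocks of 480 spots). Spots sharing 1 symbol were averaged, with symbols checked through RefSeq (GRCm38.p6) by Entrez identifier for 15964 of 16642 spots. Of all spots, 134 had several symbols and 4989 none. Tissue means were tested against 0, and differences between tissues in a fit of 18 arrays, with lmFit and eBayes. The steps were tested on simulated data. The number of arrays limits the precision.

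The 9 genes, the lists and the named genes were chosen with earlier results of these data known. Named genes were the 9, up to 4 further genes per list past the threshold in brain, and the 3 closest in likeness to each of the 9 called in brain. Glo1, the tissue and cell markers named singly, Olig1, Olig2, Sox10 and Pdgfra were named after their values were seen. Alternatives were median centring, a single loess per array, unrestored intensity (the ratio's lowest terms), scale normalisation between arrays, no dim features, single spots, 18 arrays in one fit, a replicate block and each array left out.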

Additional observations from a re-analysis of the deposited data

Results flagged for a closer look

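Of 39 groups of 6 arrays examined, 3 held an array set apart from the others by Dixon's criterion, which chance meets in about 1 group in 20. Cnp stood at 0.43 on brain array 6, with the other arrays between -0.16 and 0.00. Mobp stood at 0.13 on the same array, with the others between -0.39 and -0.20. Mog stood at -1.12 on kidney array 1, where its spot was dim.

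Of the 27 differences between tissues, 8 passed the threshold. Of all features, 23.4% passed between brain and kidney, 7.55% between brain and liver and 19.2% between kidney and liver. Brain ratios were lower than kidney ratios for Gjb1 (-1.01), Mag (-0.40) and Mbp (-0.32). They were lower than liver ratios for Mal (-0.58) and Mbp (-0.30). Kidney ratios were higher than liver ratios for Gjb1 (0.70) and Ugt8a (0.37), and lower for Mal (-0.45).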

How the results depend on the processing

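Among the calls on the 9 genes, direction and call held under every alternative tried for Mal in brain, Gjb1 in kidney and Ugt8a in liver. They also held for Gjb1 between brain and kidney and between kidney and liver. Median centring in place of loess left 1 of the 9 genes past the threshold in brain, 7 in kidney, 8 between brain and kidney, 0 between brain and liver (limma, 1 at an unadjusted p under 0.05) and 5 between kidney and liver, not always the genes called with loess. Unrestored intensity left 2 in brain and 1 between brain and liver, and single spots gave 2 in liver. With unrestored intensity 12.9% of all features passed in brain, and 23.2% of single spots passed in liver. With an array left out, 2 to 3 passed in brain, 2 to 3 in kidney, 1 in liver, 3 between brain and kidney, 1 to 3 between brain and liver, 3 between kidney and liver and 6 to 15 of the list genes. Of all features, 6.54% to 16.2% passed in those fits of brain, 33.3% to 39.2% in kidney and 14.7% to 23.1% in liver. The share was 17.8% to 25.1% between brain and kidney, 5.93% to 7.97% between brain and liver and 14.5% to 19.1% between kidney and liver.

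Signs turned with median centring for Cldn11 (0.15) and Ugt8a (0.025) in brain, Mal (0.053), Mobp (0.38) and Cldn11 (0.66) in kidney, Mal (-0.071), Gjb1 (0.026) and Mobp (0.088) in liver, Cldn11 between brain and kidney (-0.52), Cnp between brain and liver (-0.12), Mal (0.12), Mobp (0.29) and Cldn11 (0.83) between kidney and liver, and Lingo1 in brain (0.047). With a single loess they turned for Cnp in brain (0.077), Mobp (0.067) and Ugt8a (-0.0081) in kidney, Mal (-0.0046), Mobp (0.10) and Cnp (0.041) in liver, and Mbp (-0.021) and Cldn11 (0.17) between kidney and liver. With unrestored intensity they turned for Cldn11 in brain (0.10) and kidney (0.20), Mog in liver (-0.00012), Cldn11 between brain and kidney (-0.10) and between kidney and liver (0.31), and Cnp between brain and liver (-0.018). With an array left out they turned for Cnp (-0.096 to 0.023) and Cldn11 (-0.048 to 0.035) in brain, Mobp in liver (-0.027 to 0.040), Mog between brain and kidney (-0.15 to 0.10), Cnp between brain and liver (-0.0092 to 0.11), and Mbp (-0.026 to 0.079) and Cldn11 (-0.072 to 0.016) between kidney and liver. The cause was not tested.

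The deviations of same-numbered arrays correlated between -0.23 and 0.16 over 18 pairs. With no reference value for such correlations, whether these arrays share more than a number cannot be told. With the replicate number as a block, 1 gene passed between brain and liver, since Mbp (-0.30) had an adjusted p of 0.0567 in limma, and no other call on a difference changed. The share of all features past the threshold with median centring was 64.9% in kidney, 35.2% between brain and kidney, 4.11% between brain and liver and 45.9% between kidney and liver. It was 15.3% between brain and kidney and 3.83% between brain and liver with unrestored intensity, 4.36% between brain and liver with a single loess, 8.45%, 6.54%, 7.47% and 7.53% in brain without array 2, 4, 5 or 6, and 14.7% in liver without array 3. Dim spots, such as Cnp in every tissue and Mog in kidney and liver, limit what their ratios show.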
